A study of Mus musculus with 10 samples.

Results

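Tpm1 encodes a tropomyosin, the coiled-coil protein that lies along actin filaments and controls which motors and severing proteins can bind them. The members described here are all Tpm1 sites of intronic polyadenylation (IPA) in the authors' comparison tables. These tables hold 13 rows for Tpm1, which give 8 intervals at 6 sites, out of 2311 rows, 2074 intervals and 1453 genes in all. Tpm1 was selected on the measured fold changes and adjusted p-values by which those tables list it, so its differences in those tables are a description and carry no test of their own.

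Polyadenylated 3' ends were sequenced in cultured mouse mammary tumour cells of the 4T1 family, with 2 libraries in each of 5 groups. The groups were 4T1-U1-ASO, which is 4T1 given with Endo Porter a morpholino antisense to the U1 small nuclear RNA, then 4T1 and 4T07, labelled invasive and called metastatic in the series design, and 168FARN and 67NR, labelled non-invasive and called non-metastatic. All were grown in DMEM with 10% FBS. The design speaks of mock-treated 4T1 cells as the control of the U1 block, but no 4T1 label records a mock treatment. Whether the paired libraries of a group are separate cultures is stated nowhere in the labels, so SDs and p-values cover the spread between these libraries alone, which may be technical, and each group is 1 cell line.

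Most transcripts of RNA polymerase II are cleaved and polyadenylated in the last exon. Cleavage at a site inside an intron gives a shorter RNA that lacks the exons downstream. U1 recognises 5' splice sites and also protects nascent transcripts from cleavage at such sites. Tpm1 itself has alternative promoters, alternative internal exons and alternative last exons, and its isoforms differ between muscle and non-muscle cells. Loss of long tropomyosins and of stress fibres is a known feature of many transformed cells.

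The 6 sites lie on chromosome 9, minus strand, in mm9 coordinates, and are numbered here from 5' to 3'. Site 1 spans 66889504 to 66889819, and its 3' end is 19.11 kb upstream of the 3' end of the last exon. Site 2 spans 66882351 to 66882715, at 11.96 kb. Site 3 spans 66878831 to 66878934 and site 4 spans 66878260 to 66878392, at 8.44 and 7.87 kb. Site 5 spans 66876646 to 66877541 in the 4 tables of lines and 66876646 to 66877220 in the U1 table, at 6.26 kb in both. Site 6 spans 66875487 to 66876408 in the tables of lines, at 5.10 kb, and 66875700 to 66875985 in the U1 table, at 5.31 kb. The last-exon peak spans 66870391 to 66871405, where the peak lists gave the same last-exon reads as the tables in 8 of 9 libraries. No mm9 annotation was used here, so "intronic" is the authors' term for the sites, and the intron of each is not given.

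Sites 1 to 4 stand only in the U1 table, while sites 5 and 6 stand in the tables of lines as well. Site 5 is among the 13 of 520 line intervals listed in all 4 line comparisons, and site 6 is listed in 3, not in 4T07 against 67NR. Tpm1 is 1 of 15 genes in all 4 line tables and 1 of 2 genes in all 5 comparisons. All 7 Tpm1 rows of the line tables were lower in the metastatic line, and all 6 of the U1 table were higher in 4T1-U1-ASO. Over all listed sites the same direction held for 76.2% in 4T1 against 67NR, 82.2% in 4T07 against 67NR, 75.3% in 4T1 against 168FARN, 79.6% in 4T07 against 168FARN and 87.6% in 4T1-U1-ASO against 4T1. Since the tables chose the member, nothing is read from its direction.

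The data are reads per site and per last exon in each library, recovered as whole numbers from the authors' normalized values. Peak lists held 2499475 to 3347776 reads in 9 libraries. The list of 67NR replicate 2 covers 10 chromosomes and leaves out chromosome 9, so that library has table values only. Usage of a site is its reads as a percentage of its reads plus those of the last exon, within 1 library, so scaling between libraries drops out. Intervals of a single library are exact binomial (Clopper-Pearson) at 95% and, like limits from a count of 0, cover counting error only. In bulk libraries, fewer cells using a site and fewer site reads per cell cannot be told apart.

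At site 5, metastatic lines used the intronic end less than non-metastatic lines did. Its reads were 17 and 16 in 4T1, 19 and 22 in 4T07, 72 and 81 in 168FARN, and 64 and 70 in 67NR. Last-exon reads of the same libraries were 1516 and 2024 in 4T1, 1776 and 2116 in 4T07, 1699 and 1975 in 168FARN, and 2364 and 2050 in 67NR. Both metastatic lines were low and both non-metastatic lines high, with no overlap, while last-exon reads overlapped between the 2 kinds of line. The tables listed the site for this difference, so the separation is a description only. Usage was 0.947% ± 0.230 in 4T1, 1.04% ± 0.0209 in 4T07, 4.00% ± 0.0890 in 168FARN and 2.97% ± 0.471 in 67NR (SD, n = 2). Mean usage of site 5 in 4T1 was 0.237 times that in 168FARN and 0.319 times that in 67NR. For 4T07 the ratios were 0.261 and 0.352. The ranges of 4T1 and 4T07 overlapped, at 0.784% and 1.11% in 4T1 against 1.03% and 1.06% in 4T07.

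At site 6, the nearest to the last exon, the order was the same but 168FARN stood well above every other line. Its reads were 16 and 12 in 4T1, 30 and 26 in 4T07, 147 and 145 in 168FARN, and 55 and 47 in 67NR. Usage was 0.817% ± 0.322 in 4T1, 1.44% ± 0.316 in 4T07, 7.40% ± 0.794 in 168FARN and 2.26% ± 0.0229 in 67NR (SD, n = 2). The 4 lines did not overlap with each other, with 2 libraries in each. Separation of metastatic from non-metastatic lines is favoured by how the site was listed, and the share of other listed sites that separate is not given. Mean usage in 4T1 was 0.110 times that in 168FARN and 0.362 times that in 67NR, and in 4T07 it was 0.194 and 0.637 times those levels. Site 6 in 4T07 against 67NR is the pair left outside the authors' threshold of an adjusted p of at most 0.1. The pair nearest to it on the inside is site 6 in 4T1 against 67NR, with 0.050 in the authors' deposited table.

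**Figure D1:**
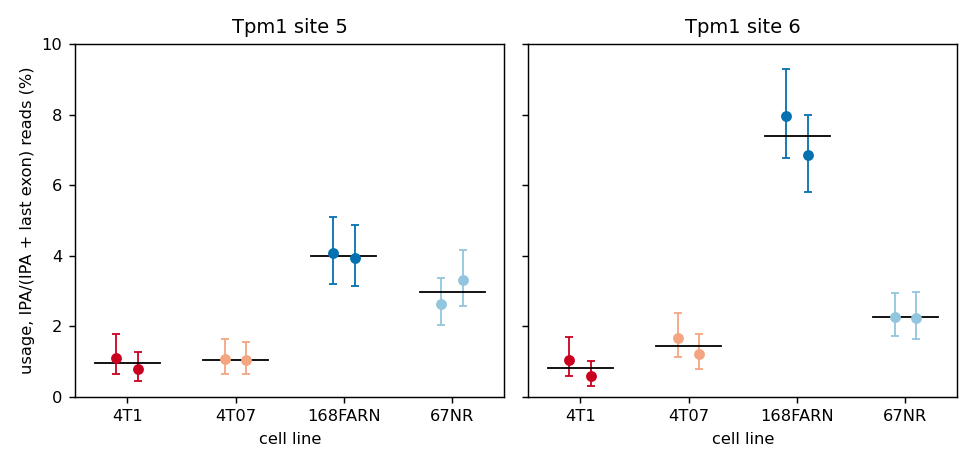
Usage of Tpm1 sites 5 and 6 (percent of IPA and last-exon reads) in the 2 libraries of each line, with exact 95% intervals as bars and the line's mean as a black rule. At site 5 the 4T1 and 4T07 libraries lie near 1% and the others between 2.64% and 4.07%; at site 6 the 168FARN libraries reach 6.84% and 7.96%.

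The authors' deposited tables give the log2 fold change of each site relative to the last exon. For site 5 these were -1.91 in 4T1 against 168FARN (SE 0.34), -1.84 in 4T07 against 168FARN (SE 0.30), -1.46 in 4T1 against 67NR (SE 0.36) and -1.37 in 4T07 against 67NR (SE 0.33). For site 6 they were -2.94 in 4T1 against 168FARN (SE 0.34), -2.32 in 4T07 against 168FARN (SE 0.27) and -1.29 in 4T1 against 67NR (SE 0.39). In the authors' deposited tables the values of site 5 lie close together, while those of site 6 are lower against 168FARN than against 67NR. These comparisons share libraries, so they are not separate measurements of 1 difference.

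The sites added together give the share that ended at either one, among reads at these sites and the last exon. Ends that no table lists are outside this share. Together, sites 5 and 6 took 2.13% and 1.36% in 4T1 and 2.68% and 2.22% in 4T07, of the reads at both sites and the last exon. In 168FARN they took 11.4% and 10.3%, and in 67NR 4.79% and 5.40%. The metastatic libraries were thus all below the non-metastatic ones, which the choice of sites favours, and both 168FARN libraries were above both of 67NR. The balance between both sites also differed by line. Site 6 held 48.5% and 42.9% of the reads at sites 5 and 6 in 4T1, 61.2% and 54.2% in 4T07, 67.1% and 64.2% in 168FARN, and 46.2% and 40.2% in 67NR. The exact intervals were wide in 4T1, from 24.5% to 66.5% over both libraries, and narrow in 168FARN, from 57.5% to 73.3%. The share did not split the lines by metastatic label, since 4T1 overlapped 67NR. It was not tested.

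Last-exon reads of Tpm1 lay in a narrow range over the lines. These reads, scaled by size factors joint to the 8 line libraries, were 1877 and 2119 in 4T1, 1971 in both 4T07 libraries, 1716 and 1819 in 168FARN, and 2158 and 1801 in 67NR. The ranges of 4T1, 4T07 and 67NR overlapped, and that of 168FARN overlapped 67NR.

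No deposited table compares 4T1 with 4T07 or 168FARN with 67NR, so these contrasts were tested, on recovered reads of the 45 sites of 42 genes for which the tables give values in all 8 line libraries (values of 0 included). All 45 were listed by the authors for other contrasts of the same libraries, so the sites are a selected set. At site 6, IPA relative to the last exon fell in 4T1 against 4T07 by 0.86 on the log2 scale (SE 0.35, edgeR quasi-likelihood test, adjusted p = 0.0373). In that contrast 42.2% of the 45 sites were called, 13 higher and 6 lower, with a median log2 difference of 0.57 over all 45. The call was lost with DESeq2 (adjusted p = 0.194), and without 4T1 replicate 2 the difference was -0.45 (adjusted p = 0.444). It was also lost without 4T07 replicate 1 (-0.63, adjusted p = 0.282) and without 4T07 replicate 2 (-1.08, adjusted p = 0.0511). IPA reads alone at site 6 differed by -0.83 (SE 0.33, adjusted p = 0.0781 by edgeR; 28.9% of sites were called). Site 5 gave -0.17 relative to the last exon (SE 0.36, adjusted p = 0.694 by edgeR), and the last exon of Tpm1 gave 0.02 (SE 0.13, adjusted p = 0.905 by edgeR; 59.5% of 42 genes were called).

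Site 6 rose in 168FARN against 67NR. IPA relative to the last exon was higher by 1.78 on the log2 scale (SE 0.21, edgeR adjusted p = 3.4e-14, DESeq2 adjusted p = 6.4e-05). In that contrast 51.1% of the 45 sites were called, 8 higher and 15 lower, with a median of -0.70. The site's own reads rose by 1.62 (SE 0.20, edgeR adjusted p = 3.36e-05; 42.2% of sites were called). The last exon of Tpm1 gave -0.16 (SE 0.13, edgeR adjusted p = 0.318; 54.8% of 42 genes were called), and its sign was positive under TMM scaling, at 0.09. Site 5 gave 0.45 relative to the last exon (SE 0.21, edgeR adjusted p = 0.0654), which passed without 67NR replicate 2 (0.62, adjusted p = 0.0242). In both contrasts site 6 passed the threshold and site 5 did not, and the difference between the sites was not tested.

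Antisense block of U1 in 4T1 cells went with higher usage at all 6 Tpm1 sites. The level of U1 cannot be checked in poly(A)+ libraries, since this RNA is not polyadenylated. At site 3 reads were 79 and 94 in 4T1-U1-ASO, against 41 and 53 in 4T1. At site 5 they were 58 and 55 in 4T1-U1-ASO, against 17 and 16 in 4T1, and at site 6 they were 47 and 39 in 4T1-U1-ASO, against 14 and 11 in 4T1. At these sites every 4T1-U1-ASO library was above both 4T1 libraries. The sites were listed for this difference, as were the 87.6% of all listed sites that were higher in 4T1-U1-ASO. The separation is thus a description only, and the share of other listed sites that separate is not given. Site 1, the farthest upstream, had 18 and 19 reads in 4T1-U1-ASO, against 4 and 7 in 4T1. Sites 2 and 4 were near the limit of detection in 4T1. Site 2 had 9 and 5 reads in 4T1-U1-ASO, against 2 and 1 in 4T1, and site 4 had 8 and 5 in 4T1-U1-ASO, against 1 and 0 in 4T1. For these 2 sites no fold of reads or usage is given. The last exon had 1243 and 1342 reads in 4T1-U1-ASO, against 1516 and 2025 in 4T1.

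As usage, site 3 was the most used in both groups, at 6.26% ± 0.403 in 4T1-U1-ASO and 2.59% ± 0.0585 in 4T1 (SD, n = 2). Site 5 was at 4.20% ± 0.368 in 4T1-U1-ASO and 0.946% ± 0.230 in 4T1, and site 6 at 3.23% ± 0.579 in 4T1-U1-ASO and 0.728% ± 0.265 in 4T1 (SD, n = 2). Site 1 was at 1.41% ± 0.0222 in 4T1-U1-ASO and 0.304% ± 0.0575 in 4T1 (SD, n = 2). The mean usage in 4T1-U1-ASO was 4.65 times that in 4T1 at site 1, 4.44 times at sites 5 and 6, and 2.42 times at site 3. The ratio at site 1 rests on 4 and 7 reads in 4T1 and is not exact. Site 3, the site already most used in 4T1, thus had the smallest ratio of these 4. Site 2 reached 0.545% ± 0.246 in 4T1-U1-ASO, against 0.0906% ± 0.0583 in 4T1, and site 4 reached 0.505% ± 0.190 in 4T1-U1-ASO, against 0.0330% ± 0.0466 in 4T1 (SD, n = 2). Over the 1561 sites of the U1 table, median usage was 4.76% in 4T1-U1-ASO and 0.998% in 4T1. In 4T1-U1-ASO, site 3 was above that median and the other 5 Tpm1 sites below it; in 4T1, site 3 alone was above it.

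**Figure D2:**
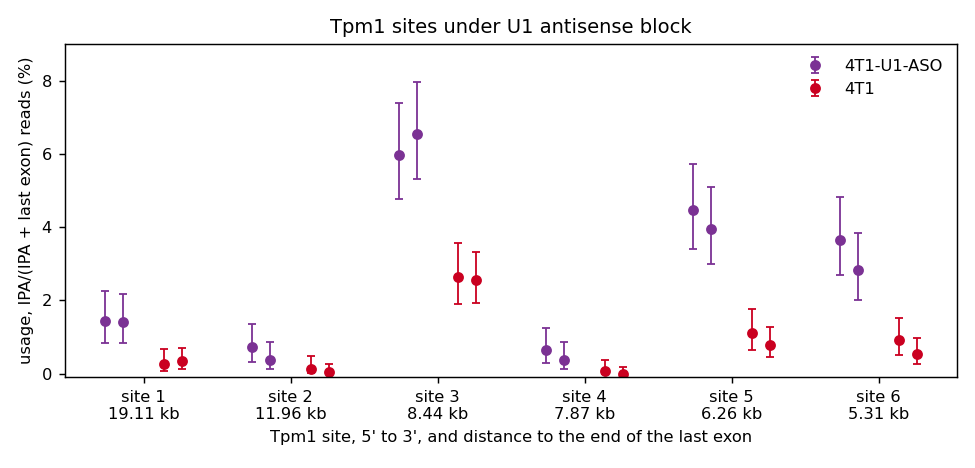
Usage of the 6 Tpm1 sites of the U1 table (percent of IPA and last-exon reads), 5' to 3' with each site's distance to the end of the last exon, in 2 libraries of 4T1-U1-ASO and 2 of 4T1. Bars are exact 95% intervals. Both 4T1-U1-ASO libraries lie above both 4T1 libraries at every site, which the listing of these sites favours, with site 3 highest.

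The authors' deposited table gives log2 fold changes relative to the last exon of 1.93 at site 1 (SE 0.52), 1.97 at site 2 (SE 0.68), 1.26 at site 3 (SE 0.35), 2.54 at site 4 (SE 0.73), 2.06 at site 5 (SE 0.40) and 2.03 at site 6 (SE 0.44). The fitted values of sites 2 and 4 rest on at most 2 reads in a 4T1 library. Its median over all listed sites was 1.85. The highest adjusted p among the 6, 0.040 in the authors' deposited table, was at site 2.

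The 6 sites together took 15.0% and 13.9% of Tpm1 table reads in 4T1-U1-ASO, against 4.95% and 4.16% in 4T1. Site 3 held 36.1% and 43.3% of these IPA reads in 4T1-U1-ASO, against 51.9% and 60.2% in 4T1. The balance of sites 5 and 6 was close in both groups, with site 6 at 44.8% and 41.5% of the pair in 4T1-U1-ASO and 45.2% and 40.7% in 4T1. Of the 1131 genes in the U1 table, 863 have 1 listed site and 7 have 6 or more, Tpm1 among them. Sites 5 and 6 under U1 block can be set beside the lines. Site 5 usage in 4T1-U1-ASO, 4.46% and 3.94%, lies beside 4.07% and 3.94% in 168FARN. Site 6 usage in 4T1-U1-ASO, 3.64% and 2.82%, lies below 168FARN and above 2.27% and 2.24% in 67NR. The intervals of these sites are narrower in the U1 table, and the values were not tested against each other.

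Both parts of the ratio differed under U1 block. On the authors' normalized scale the last exon of Tpm1 had 992 and 1058 in 4T1-U1-ASO, against 2101 and 2095 in 4T1, a log2 difference of -1.03. On the same scale sites 1, 5 and 6 differed by 1.20, 1.16 and 1.15, and site 3 by 0.30. Reads scaled by the totals of the peak lists gave -0.43 for the last exon, 1.78 for each of sites 1, 5 and 6, and 0.90 for site 3. The median last-exon difference over the genes of the table was -0.66 on the authors' scale and -0.06 per peak-list total, a shift of 0.60. Relative to that median, the last exon of Tpm1 was lower by about the same amount on either scale, at -0.37. On the authors' scale 31.6% of 1129 genes had a lower last-exon value than Tpm1, so Tpm1 stands inside the bulk of the table.

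**Figure D3:**
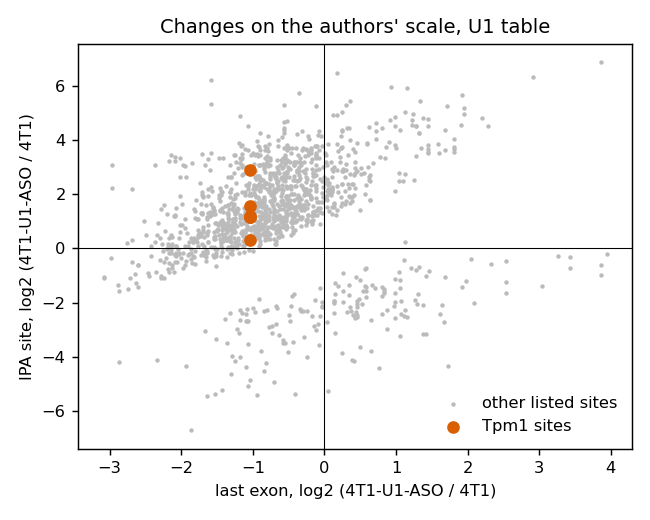
Log2 ratio of 4T1-U1-ASO to 4T1 for the last exon (x axis) and the IPA site (y axis), on the authors' normalized scale, for the 1339 listed sites with both values finite. The 6 Tpm1 sites, in orange, share 1 last-exon value of -1.03, with site 3 lowest in IPA at 0.30; the positions of sites 2 and 4 rest on 1 to 3 reads over both 4T1 libraries and are not exact.

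The peak lists, which hold every 3' end that passed the authors' filter, show more ends in Tpm1 than the tables. Merged over libraries, the span from site 1 to the last exon held 30 peaks. Of these, 9 overlap a listed site, 20 overlap none and 1 is the last exon. Among the 20, 13 had under 10 reads in all, and 9 were found only in 4T1-U1-ASO libraries. The number of Tpm1 peaks per library was 18 and 19 in 4T1-U1-ASO, 10 and 11 in 4T1, 8 and 9 in 4T07, 7 and 10 in 168FARN, and 6 in 67NR replicate 1. The 4T1-U1-ASO libraries had the most Tpm1 peaks, and their whole lists were also the longest, with 100236 and 98270 peaks, against 54210 and 66543 in 4T1.

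A peak list with no read at a site does not show that the site was unused. Table and list reads of Tpm1 sites were equal in 33 of 49 pairs of a table row and a library, where a site in several tables counts once for each. In 3 of 39 such pairs with 10 or more table reads the list had none. These were site 3 in 4T1 replicate 2 (53 reads in the table) and site 5 in 4T07 replicate 1 (19 reads in each of 2 tables). Over all listed sites, 24.0% of such pairs had no list read. Site 3, which the line tables do not list, had 71 list reads in 4T07 replicate 2 and none in the other lists of 4T07, 168FARN and 67NR, so its use in these lines is not settled by the lists.

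The most read of the unlisted ends lies at 66883543 to 66883939, 13.15 kb upstream of the last-exon end. It had 228 and 296 reads in 4T1-U1-ASO and 328 and 367 in 4T1. In the other lines it had 0 and 1 in 4T07, 0 and 523 in 168FARN, and 1 in 67NR replicate 1. The 2 libraries of 168FARN thus disagree entirely at this peak. Another unlisted end, at 66881678 to 66881857 and 11.29 kb, was present in all 9 lists at similar reads. It had 135 and 147 reads in 4T1-U1-ASO, 112 and 84 in 4T1, 99 and 124 in 4T07, 140 and 121 in 168FARN, and 108 in 67NR replicate 1. In all 9 lists together it had 1070 reads, more than any listed site of the gene. Unlisted ends held 20.6% and 24.0% of list reads in the span in 4T1-U1-ASO, and 22.4% and 19.2% in 4T1. They held 6.0% and 7.0% in 4T07, 7.0% and 23.9% in 168FARN, and 4.8% in 67NR replicate 1. The last exon held 74% and 80% in 4T1, 92.4% and 88.1% in 4T07, 82.5% and 68.2% in 168FARN, and 90.6% in 67NR replicate 1. Over all list ends, the smaller upstream share that 4T1 had at sites 5 and 6 was not seen. The end at 13.15 kb weighs heavily in these shares, and the 168FARN lists disagree there. Since a list without reads does not show that an end was unused, the shares do not settle how the lines differ over all ends.

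**Figure D4:**
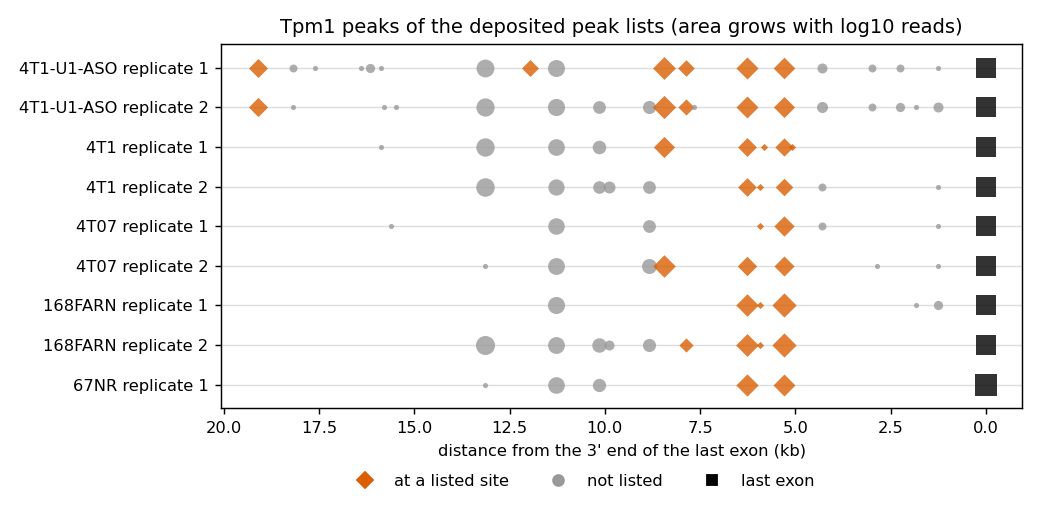
Peaks of the deposited lists along Tpm1, 5' on the left, by distance from the 3' end of the last exon in kb, 1 row per library; symbol area grows with log10 of the reads. Sites near 5 to 6 kb and the end at 11.29 kb recur in nearly every row, many small ends appear only in the 4T1-U1-ASO rows, and the end at 13.15 kb is large in 4T1-U1-ASO, 4T1 and 1 library of 168FARN.

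Of these peaks, 3 were present in all 9 lists: the end at 11.29 kb, the main peak of site 6 and the last exon. They were tested on list reads with a fit over 22631 merged peaks, without 67NR replicate 2. The end at 11.29 kb gave a log2 difference of 0.04 in 4T1 against 4T07 (SE 0.30, edgeR adjusted p = 1). In 168FARN against 67NR it gave 0.46 (SE 0.38, edgeR adjusted p = 0.562). The site 6 peak gave -0.94 in 4T1 against 4T07 (SE 0.32, edgeR adjusted p = 0.155; 11.0% of peaks were called) and 1.58 in 168FARN against 67NR (SE 0.39, edgeR adjusted p = 0.121; 3.97% of peaks were called). Both differences of site 6 were close to those on table reads, and neither passed in this fit. Lists and tables count nearly the same reads at site 6, so the closeness is not a second measurement. The last exon gave 0.04 in 4T1 against 4T07 (SE 0.09, edgeR adjusted p = 0.903) and -0.19 in 168FARN against 67NR (SE 0.11, edgeR adjusted p = 0.440).

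Other genes of the same filaments were looked up in the tables. Of 4 tropomyosin genes, Tpm1 to Tpm4, only Tpm1 is listed. Of 50 actin filament genes other than Tpm1, 11 are listed in at least 1 table. In the U1 table these 11 genes have 21 sites, of which 18 were higher and 3 lower in 4T1-U1-ASO. That is 85.7% higher, against 87.6% over all listed sites, and the list's median log2 fold change was 1.76 against 1.85 in the authors' deposited table. Actn1, the alpha-actinin that bundles filaments at adhesions, has 2 listed sites, with log2 fold changes of 1.59 and 1.99 in the authors' deposited table. In the tables of lines the list holds only Rock2, a kinase that drives actomyosin contraction, with 1 site in 4T07 against 67NR and 3 in 4T07 against 168FARN. All 4 of these rows were lower in 4T07. Rock2 usage at 16929810 to 16929888 on chromosome 12 was 27.5% ± 7.66 in 4T07, against 83.4% ± 3.13 in 168FARN and 83.4% ± 9.88 in 67NR (SD, n = 2). In the U1 table Rock2 sites went both ways, with log2 fold changes of -3.98, -3.22 and 1.83 in the authors' deposited table. The first of these, at 16929810 to 16929853, had usage of 3.84% ± 0.0571 in 4T1-U1-ASO, against 56.6% ± 21.7 in 4T1 (SD, n = 2). IPA reads at that Rock2 site were 34 and 35 in 4T1-U1-ASO, against 41 and 49 in 4T1. Last-exon reads of Rock2 were 843 and 887 in 4T1-U1-ASO, against 16 and 70 in 4T1. The lower usage thus lay mainly in the last-exon reads, which were few and uneven in 4T1. In usage, this Rock2 site was opposite to the Tpm1 sites.

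Of 21 RNA-binding proteins and splicing regulators, among them several known to act on Tpm1 exons, 10 are listed. Of them, 9 are in the U1 table with 19 sites, 18 higher and 1 lower in 4T1-U1-ASO (94.7% higher, against 87.6% over all listed sites), with a median of 2.89 in the authors' deposited table. Of these 19 sites, 8 are in Tra2a, which encodes a splicing activator. Ptbp2, a polypyrimidine tract-binding protein, had 1 site, at 2.46 in the authors' deposited table. Rbfox2, a splicing regulator, had the 1 lower site, at -3.02 in the authors' deposited table. In the tables of lines, Qk and Tra2a were listed only in 4T07 against 168FARN, Qk lower and both sites of Tra2a higher in 4T07.

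Epithelial and mesenchymal markers could be read only where a table lists the gene, which was so for 2 of 12 and 6 of 12. No immune or endothelial marker on the lists (5 and 3 genes) is listed. At the last exon, Spint2, an epithelial protease inhibitor, had 963 and 965 reads in the 4T1 libraries, 730 and 849 in those of 4T07, against 0 and 0 in 168FARN and 5 and 0 in 67NR. Twist2, a mesenchymal transcription factor, had 2 and 0 in 4T1 and 0 and 0 in 4T07, against 309 and 293 in 168FARN and 74 and 54 in 67NR. Axl, a receptor kinase of mesenchymal cells, had 2897 and 3115 in 4T07, against 3555 and 3342 in 168FARN and 4164 and 3388 in 67NR. Of the mesenchymal list, Prrx1 had 2 and 0 in 4T1, against 371 and 525 in 168FARN. Sparc had 6833 and 7185 in 4T07, against 17022 and 15108 in 67NR. Only Spint2 and Twist2 had values in all 4 lines. They separate the lines the way Tpm1 sites 5 and 6 do, but were readable only because tables list them. The markers' part in the Tpm1 values was not tested. Cdh1, on the epithelial list, had 1305 and 1370 in 4T1-U1-ASO, against 800 and 952 in 4T1. Vim, encoding the mesenchymal filament protein vimentin, had 3017 and 2772 last-exon reads in 4T1-U1-ASO, against 12512 and 13028 in 4T1. Fn1, encoding the matrix protein fibronectin, had 1895 and 2028 in 4T1-U1-ASO, against 2080 and 2551 in 4T1. All these marker reads are not scaled between libraries. On the authors' scale the size factors were 1.25 and 1.27 in 4T1-U1-ASO, against 0.72 and 0.97 in 4T1. The higher Cdh1 reads in 4T1-U1-ASO thus do not show a higher level of Cdh1.

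Site 5 leads the Tpm1 sites, as the one in most line tables. Its pattern over the 8 line libraries was compared with that of 35 sites of other genes by Pearson's r of the log2 ratio of IPA to last-exon reads. The tables of lines list these sites for differences between metastatic and non-metastatic lines in the same libraries. Site 5 was chosen from the same tables, so a strong r of either sign is favoured by the selection. The values of r are thus a description only. The median r was 0.61, and 13 sites had an r above 0.8. The 5 highest were sites in Camk1d (r = 0.979), Dhx40 (r = 0.972), Parn (r = 0.919), Slc25a13 (r = 0.906) and Prpf31 (r = 0.885). Camk1d encodes a calmodulin-dependent kinase, Dhx40 a helicase of the DEAH family, Parn a poly(A) ribonuclease, Slc25a13 a mitochondrial carrier and Prpf31 a splicing factor. Tpm1 site 6 had an r of 0.904 with site 5. The points are 2 libraries of each of 4 lines and share last-exon reads within a gene, and the measure takes no account of size. Dhx40 usage was 2.83% ± 4.00 in 4T1 and 0.761% ± 1.08 in 4T07, against 96.5% ± 0.686 in 168FARN and 91.0% ± 6.14 in 67NR (SD, n = 2), a far wider range than that of Tpm1.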

How the data were processed

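The members, gene lists and tests were chosen with earlier results of these data known. Per the submitters' processing notes, the authors used bedtools 2.17.0, SAMtools 1.1, DESeq2 1.4.5, Bowtie2 2.2.5 and the build mm9, with no step named. Per the labels' protocols, 5 µg of total RNA gave libraries after 13 PCR cycles, read as 50-nt single ends. The deposited peak lists hold a read count per peak, filtered by the authors with settings that the labels do not state. The authors' deposited comparison tables hold, per the file headers, a p-value and its adjusted form, a test score, and a log2 fold change with an SE. They also hold a normalized read signal of the IPA site and last exon per library, deposited by the authors. Each signal column was divided by its value of 1 read, and 100% of values came out whole within 0.1 read. Log2 fold changes are given as the metastatic line or 4T1-U1-ASO minus the other group.

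Recovered reads were tested with the quasi-likelihood test of edgeR 4.0.16 under R 4.3.3 (size factors joint to the tables, at least 10 reads summed, Benjamini-Hochberg adjusted p under 0.05). The model of IPA over last-exon reads held all 8 line libraries with a term per library. Peaks were merged where they overlap by at least 1 bp on 1 strand and fitted with TMM scaling on 7 line libraries. Both models were tested on simulated data with planted log2 changes of 2 in either direction. The site model recovered 47.2% of them and called 0.417% of unchanged sites. The peak model recovered 90% and called 0.0222% of unchanged peaks. A site left uncalled by the site model is thus not shown to be unchanged. DESeq2 1.42.0, TMM scaling, no filter on low counts, a replicate block, fewer libraries, stricter thresholds and other read sources were alternatives; scaling by peak-list totals was added after seeing the data. All Tpm1 sites and the peaks in all 9 lists are named, and the 5 sites of other genes with the highest r among sites with at least 10 IPA plus last-exon reads in each library (pseudocount 0.5). No replicate pair agreed within sampling noise (chi-square test over last-exon reads). No sequence is printed, since no mm9 genome was used here.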

Additional observations from a re-analysis of the deposited data

Results flagged for a closer look

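Lines of the same label differed at Tpm1 site 6 on table reads, in contrasts that no deposited table holds. IPA relative to the last exon was 1.78 higher on the log2 scale in 168FARN against 67NR, both called non-metastatic. It was -0.86 in 4T1 against 4T07, both called metastatic, a call that was lost without either library of 4T07 or without 4T1 replicate 2, and with DESeq2 (adjusted p = 0.194). On peak-list reads neither difference passed (edgeR adjusted p = 0.121 for 168FARN against 67NR and 0.155 for 4T1 against 4T07).

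Reads above the limit that a count of 0 allows (3 reads) were found in at least 2 libraries at 6 Tpm1 ends that no deposited table lists. The highest value in 1 library was 523 reads at the end 13.15 kb from the last-exon end, 147 at 11.29 kb, 30 at 10.16 kb, 9 at 9.88 kb, 40 at 8.83 kb and 6 at 4.31 kb. The end at 13.15 kb reached its highest value in 168FARN replicate 2 while replicate 1 had 0. Why the lists of replicates differ there was not tested.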

How the results depend on the processing

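Of the alternatives run, most kept direction and side of the threshold; the cause of the exceptions was not tested unless given. In 4T1 against 4T07, site 6 relative to the last exon was -0.85 with DESeq2 (adjusted p = 0.194) and -0.85 with the replicate block (adjusted p = 0.0599), and its IPA reads were -0.83 with the replicate block (adjusted p = 0.0402). The correlation of same-numbered deviations was over 0.1 in 5 of 6 pairs of lines (0.123 to 0.427) and -0.063 in 4T07 with 168FARN, so the numbers were not taken to pair the samples. The last exon in 168FARN against 67NR was 0.0909 under TMM scaling. Without a low-count filter, list reads in 4T1 against 4T07 were -0.0381 at the end at 11.29 kb and -0.0206 at the last exon, and with the replicate block the first was -0.0109. Leaving out 1 library in 4T1 against 4T07, the sites called ranged from 12 to 20, site 6 relative to the last exon from -1.27 to -0.45, its IPA reads from -1.17 to -0.52, site 5 relative to the last exon from -0.412 to 0.0898, its IPA reads from -0.308 to 0.0197, the last exon from -0.0702 to 0.104 and the end at 11.29 kb from -0.38 to 0.37. Where this left 1 library in a line, that library was taken to vary like the other lines. In 168FARN against 67NR, site 5 relative to the last exon ranged from 0.29 to 0.62. On list reads 67NR has 1 library, so it could not be left out. Usage from peak-list reads was 0.0% at sites 1 and 2 and 1.32% at site 3 in 4T1, 0.491% at site 5 in 4T07 and 3.88% at site 5 in 168FARN, since the lists lack reads there. At a deposited adjusted p of at most 0.01, 1 Tpm1 site is left in 4T1 against 67NR. The last-exon difference in 4T1-U1-ASO against 4T1 was -0.43 when scaled by peak-list totals. By Spearman's rho, 2 of the 5 sites most like site 5 stay among the 5. Reads at sites 1, 2 and 4 in 4T1, at most 7 per library, limit what can be said there.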
